A study of Mus musculus with 6 samples.

Results

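Collagen chains are the 44 features, of 26554 in the deposited files, whose gene name reads Col, a number, the letter a and a number, and whose counts summed over all libraries reached 10. All 44 such rows reached that sum, from 44 counts for Col10a1 to 27496 for Col25a1. By the class of collagen they build, 11 were fibrillar chains, 6 were basement membrane chains (Col4a1 to Col4a6) and 27 belonged to other types. The tissue was the VPL/VPM (ventral posterolateral and posteromedial nuclei), the touch and pain relay of the thalamus, of wild-type (WT) C57 mice. Day 14 after an injection into the right VPL/VPM, 3 libraries came from mice given 10 nL with 0.01 U of type IV collagenase and 3 from mice given 10 nL of saline. The study uses the enzyme, which digests collagen around vessels and so causes a small haemorrhage, to model central post-stroke pain. Every library came from injected tissue, and the labels name neither age nor sex, nor whether a library is 1 animal or several, so p-values measure the spread between these libraries.

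Collagens are extracellular proteins in which several chains wind around each other, and each chain is the product of its own gene. Types I, III and V form fibrils and are made mainly by fibroblasts, which in healthy brain are sparse and lie in the meninges and around larger vessels, while type IV forms the network of the basement membrane under endothelium and around pericytes. Scar tissue at a brain lesion can contain fibrillar collagen. The values below are of RNA, not of the protein that the injected enzyme cuts.

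Total counts ran from 33603076 to 44815451 per library. Levels of 1 gene are given as CPM, read counts scaled to a common library size with TMM, and levels of different genes are compared by the deposited FPKM, which is also scaled by gene length. All 6 listed markers of thalamic relay neurons were detected in every library, with a summed level of 2021 to 2918 CPM under saline and 1984 to 2305 CPM after collagenase. Libraries differed in neighbouring tissue: the 8 markers of the choroid plexus summed to 957, 2652 and 34.1 CPM in saline replicates 1, 2 and 3 and to 1853, 2012 and 40.1 CPM in collagenase replicates 1, 2 and 3, and 5 habenular markers to 13.2, 13.8 and 121 CPM and to 106, 48.3 and 167 CPM. Those sums overlapped between groups, while the 6 hippocampal and cortical markers summed to 628, 616 and 530 CPM in saline and 363, 371 and 343 CPM in collagenase replicates without overlap. Most of that sum was Slc17a7, at 463, 481 and 383 against 238, 264 and 245 CPM, and each other marker of the list overlapped between groups. Neurod6 measured 23.0, 39.8 and 0.176 CPM in saline and 3.65, 0.538 and 0.570 CPM in collagenase replicates 1, 2 and 3. Slc17a7 was called lower (edgeR adjusted p 0.0123, lost when any of 4 libraries was left out). The 6 inhibitory and reticular neuron markers summed to 1159, 874 and 983 CPM in saline and 789, 748 and 591 CPM in collagenase replicates without overlap. All 6 had a log2 fold change below 0. Of these Dlx1 was called lower (edgeR adjusted p 0.0328, lost when any of 4 libraries was left out), where 0.29% of all tested genes were. The part of these neurons in the collagen values was not tested. In bulk tissue, a change in the number of cells of a type and a change in RNA per cell cannot be told apart.

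The RefSeq table of promoter windows (GRCm38.p6) matched 35 of the 44 chains. The bases before the RefSeq starts of Col1a2 and Col3a1 are shown, since both chains rose after collagenase and have a window. For Col1a2 the RefSeq start, at 4505618, lies inside the gene as GENCODE M21 draws it, from 4504814. Its printed stretch is therefore within that gene and not before it. Each is on the plus strand, written 5′ to 3′, and bases that any GENCODE M21 exon covers were left out, so the Col1a2 stretch is the 123 bases at chr6:4505370-4505492 and that of Col3a1 the 250 bases at chr1:45311288-45311537. Capitals mark 3 motifs, searched on both strands. The first is TATAAA, the letters of a TATA box. The second is GGGCGG, those of a GC box. The third is CAGACA, those of a SMAD-binding element, which reads TGTCTG where it lies on the opposite strand. None of the marked matches overlap.
Col1a2: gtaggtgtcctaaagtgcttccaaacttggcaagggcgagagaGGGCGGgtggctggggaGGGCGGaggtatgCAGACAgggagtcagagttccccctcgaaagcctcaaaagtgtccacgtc
Col3a1: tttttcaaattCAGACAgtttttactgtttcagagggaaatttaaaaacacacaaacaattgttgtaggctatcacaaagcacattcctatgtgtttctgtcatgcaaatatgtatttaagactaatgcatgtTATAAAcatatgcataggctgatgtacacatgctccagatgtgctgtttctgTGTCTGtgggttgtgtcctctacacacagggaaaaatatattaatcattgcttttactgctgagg
The neighbouring letters differ, with GGGCGG 205 and 188 bases before the RefSeq start in Col1a2 and TATAAA 117 bases before it in Col3a1. CAGACA or its opposite strand lay 175 bases before the start in Col1a2 and 239 and 65 bases before it in Col3a1. Within the 250 bases before the start CAGACA was found for 9 of 35 collagen chains (25.7%) against 19.3% of all 27025 genes with a window. GGGCGG was found for 21 of the 35 chains (60.0%) against 35.4% of all genes, TATAAA for 5 (14.3%) against 14.3%, and CCAAT, searched on both strands too, for 13 (37.1%) against 37.5%. These are letter matches and not binding sites.

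After collagenase, RNA of 3 fibrillar chains rose: Col3a1, the single chain of type III collagen, and Col1a1 and Col1a2, which together build type I collagen. A gene was called where the edgeR adjusted p over all tested genes was under 0.05. The called chains were 3 of the 43 chains tested (6.98%), where 2.12% of all 17240 tested genes were called higher, and 0 of the 43 were called lower, where 0.29% of all genes were (2.41% in either direction). The median log2 fold change of the 43 chains was 0.46, with 30 values above 0 and 13 below, while over all tested genes the median was -0.02 and 46.6% of values were above 0. Col10a1, a network-forming chain of cartilage, had too few reads to be tested, with no more than 11 counts in a library.

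Col3a1 (ENSMUSG00000026043, chromosome 1, 45311538 to 45349706, plus strand, GRCm38) showed the largest log2 fold change of the tested chains. It measured 4.21, 6.78 and 3.23 CPM in saline replicates 1, 2 and 3 and 53.9, 25.8 and 20.9 CPM in collagenase replicates 1, 2 and 3. The groups did not overlap, and the lowest collagenase library lay above every saline library, with collagenase replicate 1 well above its companions. Its mean of 4.74 ± 1.83 CPM under saline rose to 33.5 ± 17.8 CPM (± SD over 3 libraries, here and below), which is 7.07-fold. The log2 fold change was 2.82, its standard error (SE) 0.44 and the edgeR quasi-likelihood adjusted p 0.028. By FPKM it moved from place 21 to place 7 among the 44 chains. The log2 fold change was 2.30 to 3.17 over fits that left out 1 library, and the call ended without saline replicate 1 (edgeR adjusted p 0.144), saline replicate 3 (0.0938) or collagenase replicate 2 (0.0619).

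Col1a2 (ENSMUSG00000029661, chromosome 6, 4504814 to 4541544, plus strand) measured 16.2, 22.1 and 13.8 CPM under saline and 49.0, 37.2 and 38.9 CPM in collagenase replicates 1, 2 and 3. Col1a1 (ENSMUSG00000001506, chromosome 11, 94936224 to 94953042, plus strand) measured 9.17, 13.8 and 8.30 CPM under saline and 44.5, 28.3 and 21.7 CPM in collagenase replicates 1, 2 and 3. Neither gene overlapped between groups, and in both the highest value was that of collagenase replicate 1 and the lowest that of saline replicate 3. Col1a1 rose from 10.4 ± 2.95 to 31.5 ± 11.7 CPM, 3.02-fold (log2 fold change 1.60, SE 0.30, edgeR adjusted p 0.0357). Col1a2 rose from 17.4 ± 4.26 to 41.7 ± 6.36 CPM, 2.40-fold (log2 fold change 1.26, SE 0.19, edgeR adjusted p 0.0148). The call of Col1a2 ended without saline replicate 1, collagenase replicate 1 or collagenase replicate 3 (edgeR adjusted p 0.0956, 0.0536 and 0.0585). That of Col1a1 ended without saline replicate 1, saline replicate 3, collagenase replicate 1 or collagenase replicate 2 (edgeR adjusted p 0.183, 0.0993, 0.0703 and 0.0952).

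Marker lists of other cells were read beside these chains, with 2.12% of all tested genes called higher. Of the 7 tested fibroblast markers 1, the collagen-binding proteoglycan Dcn, rose, and all 7 had a log2 fold change above 0 (median 0.84). The 8 listed genes summed to 95.9 to 116 CPM under saline and 139 to 166 CPM after collagenase. The largest part of the saline sum was Pdgfra, also on the list of oligodendrocyte precursors, at 56.6 ± 1.12 and 58.8 ± 3.12 CPM. Of 6 arachnoid markers 0 passed, 5 had a log2 fold change above 0 and the median was 1.01. Crabp2 (2.48) and Aldh1a2 (1.19) were higher without overlap between groups and Cldn11 (-0.28) lower, where 10.1% and 7.5% of all tested genes were. The 6 markers summed to 753 to 1028 CPM under saline and 882 to 1661 CPM after collagenase, highest in collagenase replicate 3. Ptgds (mean 528 and 937 CPM) and Cldn11 (314 and 259 CPM) gave most of that sum. No gene of either list was at 0 over all libraries, the lowest being Dpt with 49 counts in sum. Of 6 markers of microglia and macrophages 4 rose (Cx3cr1, Csf1r, Aif1 and Cd68), with sums of 131 to 144 and 242 to 328 CPM, and 1 of them without saline replicate 1 or without collagenase replicate 2. Of 5 astrocyte markers 2 rose, Gfap and Aqp4, with sums of 968 to 1067 and 1454 to 1989 CPM. Gfap lost its call when any of 3 libraries was left out and Aqp4 when any of 4 was. The microglial and astrocyte sums did not overlap between groups and were highest in collagenase replicate 1 and lowest of the collagenase libraries in replicate 3. The part of these cells in the rise of the fibrillar chains was not tested.

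The other 8 fibrillar chains did not pass. Col5a2 and Col5a1 encode chains of type V collagen, which starts and thins type I fibrils. Col5a2 measured 3.61, 4.74 and 1.82 CPM under saline and 8.61, 5.67 and 5.26 CPM in collagenase replicates 1, 2 and 3, and Col5a1 4.82, 5.59 and 2.70 against 5.88, 8.90 and 7.93 CPM. In both genes the collagenase libraries lay above all saline libraries, with log2 fold changes of 0.94 (95% interval 0.14 to 1.75) and 0.79 (0.14 to 1.44) and edgeR adjusted p of 0.314 and 0.291. Col2a1, the chain of cartilage collagen, also showed no overlap, at 1.55 to 3.08 CPM under saline and 3.09 to 3.44 CPM after collagenase. Col11a1, Col11a2 and Col5a3, whose products belong to the type V and XI group, overlapped between groups, with log2 fold changes of 0.85 (95% interval -0.02 to 1.71), 0.46 (0.0048 to 0.91) and 0.48 (-0.03 to 0.99). Without saline replicate 2, which at 14.3 CPM was the highest saline library for Col11a1, that gene reached an edgeR adjusted p of 0.0448. Col24a1 and Col27a1, the remaining 2, had log2 fold changes of -0.14 and -0.12, and the sign of Col27a1 turned without saline replicate 1 or saline replicate 3. In all, 6 of the 11 fibrillar chains were higher without overlap between groups and 0 were lower without overlap, where 10.1% and 7.5% of all tested genes were (17.6% in either direction).

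**Figure D1:**
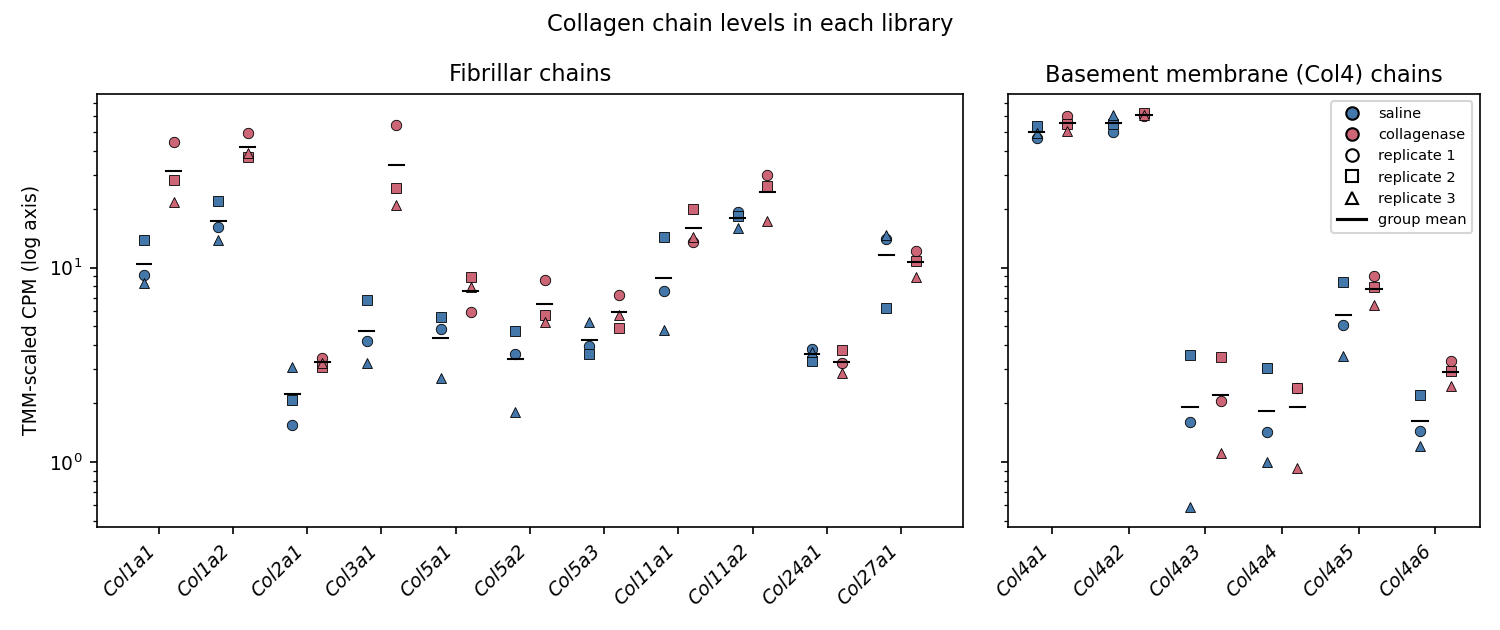
TMM-scaled CPM (log axis) of the 11 fibrillar and the 6 basement membrane chains, 1 point per library, with marker shape for the replicate number and a bar for the group mean. Col1a1, Col1a2 and Col3a1 separate the groups, while Col4a1 and Col4a2 lie between 46.5 and 62.2 CPM in all 6 libraries.

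Basement membrane chains did not pass, 0 of 6 in either direction, although all 6 log2 fold changes were above 0 (median 0.18). Col4a1 and Col4a2, which encode the chains of the most widespread type IV network, were the most precisely measured. Col4a1 gave 46.5, 53.8 and 49.1 CPM under saline and 60.6, 54.8 and 50.1 CPM in collagenase replicates 1, 2 and 3. Col4a2 gave 49.7, 54.9 and 61.2 against 59.9, 62.2 and 61.0 CPM. Both overlapped between groups. The 95% interval of the log2 fold change was -0.10 to 0.40 for Col4a1 and -0.10 to 0.38 for Col4a2, so rises above these upper bounds lie outside the intervals, and the edgeR adjusted p were 0.688 and 0.681. Of 8 endothelial markers 0 passed, with sums of 331 to 364 CPM under saline and 328 to 350 CPM after collagenase. Without overlap between groups, Flt1 was higher (66.2 to 73.2 against 75.4 to 82.4 CPM) and Ly6c1 lower (67.3 to 79.5 against 38.0 to 61.5 CPM). Of all tested genes 10.1% were higher and 7.5% lower without overlap. Of 8 markers of pericytes and smooth muscle 1, the aminopeptidase Anpep, rose, with sums of 262 to 302 and 315 to 377 CPM. All 8 had a log2 fold change above 0 (median 0.45), and Anpep, Pdgfrb and Kcnj8 were higher without overlap. The part of endothelial cells, pericytes and smooth muscle in the Col4 values was not tested.

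Col4a5 and Col4a6, whose products form another type IV network, measured 5.68 ± 2.54 and 7.81 ± 1.31 CPM and 1.62 ± 0.53 and 2.90 ± 0.42 CPM (saline, then collagenase). Col4a6 did not overlap, at 1.44, 2.21 and 1.20 CPM under saline and 3.30, 2.93 and 2.46 CPM in collagenase replicates 1, 2 and 3 (log2 fold change 0.84, SE 0.29, edgeR adjusted p 0.256). Col4a3 and Col4a4, the chains known from the kidney filter, overlapped, and their 95% intervals of -1.25 to 1.67 and -1.06 to 1.21 include both no difference and a change of more than 1 on the log2 scale in either direction. Their signs turned when single libraries were left out, and an antisense gene, C430014B12Rik, covers 5.65% of the exonic bases of Col4a3.

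**Figure D2:**
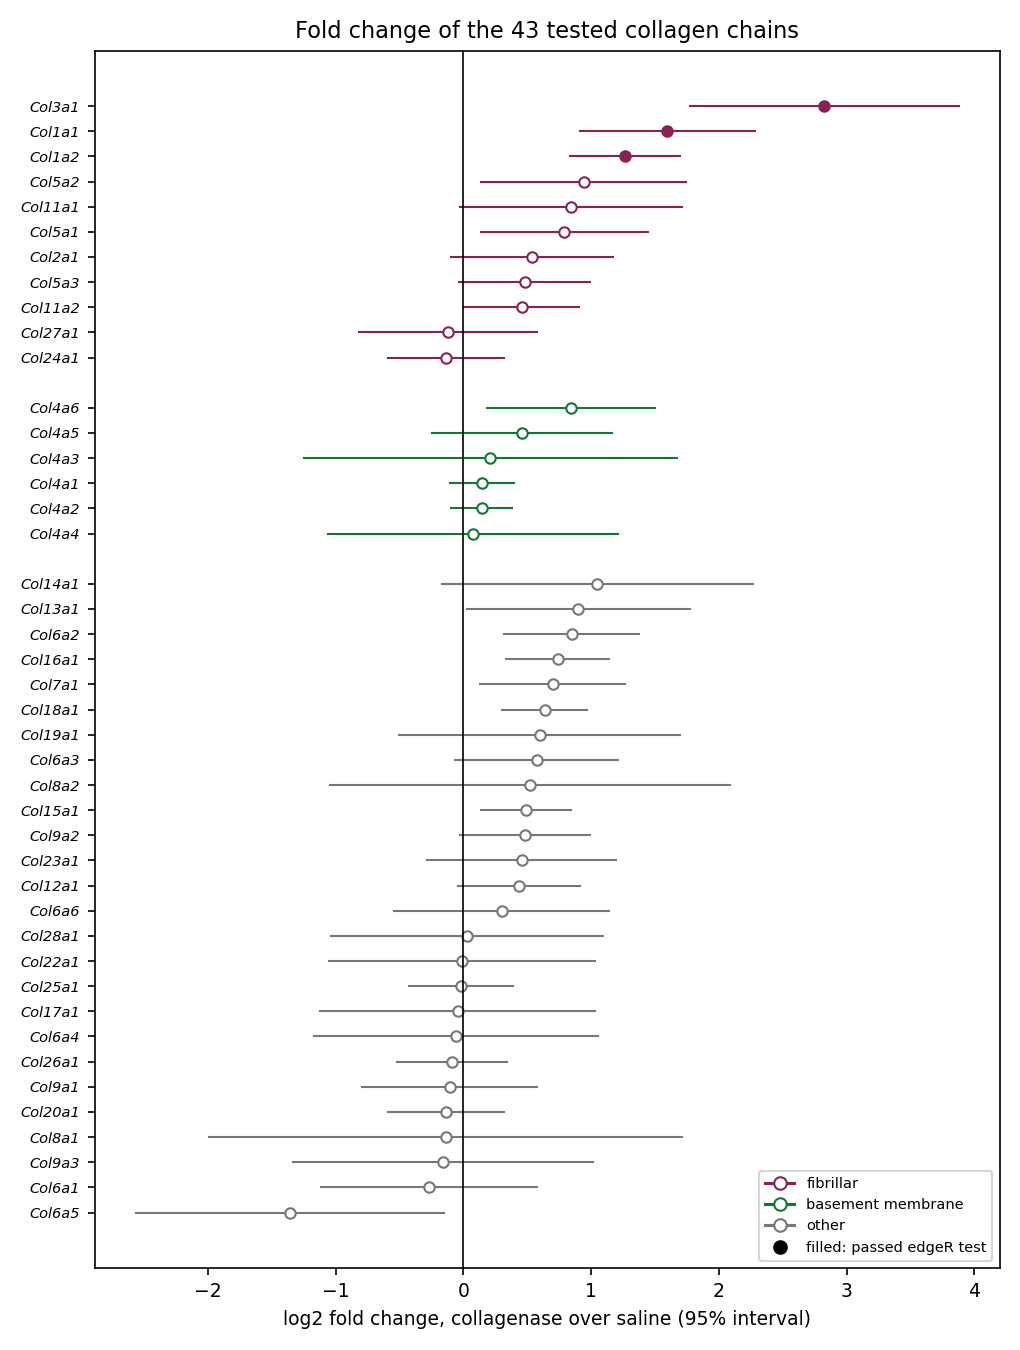
Log2 fold change of each of the 43 tested chains, collagenase over saline, with its 95% interval, ordered within fibrillar, basement membrane and other types. Filled points passed the edgeR test, which were Col3a1 (2.82), Col1a1 (1.60) and Col1a2 (1.26).

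None of the 26 tested chains of other types passed in edgeR (6 were higher and 1 lower at an unadjusted p under 0.05, where 7.44% and 4.6% of all genes were), and their median log2 fold change was 0.37. The smallest p-values belonged to Col18a1, a heparan sulfate-bearing multiplexin of vessel basement membranes and the precursor of endostatin, and Col16a1, a fibril-associated chain. Col18a1 measured 14.8, 12.0 and 14.5 CPM under saline and 22.3, 18.2 and 23.6 CPM in collagenase replicates 1, 2 and 3, and Col16a1 14.6, 19.5 and 12.3 against 26.2, 28.0 and 23.1 CPM. Neither overlapped between groups. The log2 fold change was 0.63 for Col18a1 (SE 0.15, edgeR adjusted p 0.073) and 0.74 for Col16a1 (SE 0.18, edgeR adjusted p 0.087). DESeq2 called them (adjusted p 0.00542 and 0.00537) together with Col6a2 and the 3 fibrillar chains, 6 chains in all, where it called 3.57% of all genes higher. The related multiplexin Col15a1 measured 11.3 ± 1.71 and 15.9 ± 1.46 CPM without overlap, with an edgeR adjusted p of 0.21.

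Type VI collagen forms beaded filaments next to basement membranes. Its chain Col6a2 measured 3.42, 5.85 and 5.66 CPM under saline and 8.32, 8.25 and 10.2 CPM in collagenase replicates 1, 2 and 3, with no overlap (log2 fold change 0.85, SE 0.23, edgeR adjusted p 0.138). Its partner Col6a1 measured 5.88, 12.6 and 16.7 CPM under saline and 11.7, 6.99 and 10.4 CPM in collagenase replicates, with overlap (log2 fold change -0.27, 95% interval -1.12 to 0.58). Col6a3, the third chain of the common type VI molecule, gave 0.57 on the log2 scale (95% interval -0.07 to 1.21). Col6a5 had the lowest log2 fold change of all tested chains (-1.36, SE 0.53), at 0.744, 0.436 and 1.55 CPM under saline and 0.441, 0.376 and 0.233 CPM in collagenase replicates 1, 2 and 3. Its groups overlapped, its counts summed to 145, and the edgeR adjusted p was 0.342. Col6a4 and Col6a6, neighbours of Col6a5, had log2 fold changes of -0.06 and 0.30.

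Of the remaining chains, Col7a1 of anchoring fibrils, the transmembrane Col13a1 and the fibril-associated Col12a1 also showed no overlap, at 1.29 to 1.96 against 2.33 to 2.86 CPM, 0.518 to 1.40 against 1.48 to 2.06 CPM and 8.70 to 9.65 against 10.3 to 16.9 CPM. Their log2 fold changes were 0.70, 0.90 and 0.44. Col14a1, a fibril-associated chain of dense connective tissue, overlapped between groups at a log2 fold change of 1.05 (SE 0.53), and that of Col19a1 was 0.60 (SE 0.48). Over all 43 tested chains, 14 were higher without overlap (32.6%, against 10.1% of all tested genes) and 0 were lower without overlap.

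Col25a1, a transmembrane chain made by neurons, did not differ between groups beyond its spread. It had the highest FPKM of the 44 chains in both groups, with 16.6 ± 2.98 FPKM under saline and 17.3 ± 1.62 FPKM after collagenase. It measured 133, 85.1 and 132 CPM under saline and 111, 105 and 130 CPM in collagenase replicates 1, 2 and 3, with saline replicate 2 lowest. The log2 fold change was -0.02 with a 95% interval of -0.42 to 0.39. Col26a1, in place 5 by FPKM under saline, measured 8.65 to 11.4 and 7.65 to 11.1 CPM, and the 95% interval of its log2 fold change was -0.52 to 0.34.

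Part of the chains varied more between libraries of the same group than between groups. Col8a1, which forms hexagonal networks, measured 6.53, 17.0 and 2.26 CPM under saline and 10.9, 9.01 and 3.47 CPM in collagenase replicates 1, 2 and 3, a 7.54-fold range within saline and 3.14-fold within collagenase libraries. Its partner Col8a2 ranged 4.84-fold and 3.50-fold, Col4a3 6.05-fold and 3.11-fold, Col4a4 3.06-fold and 2.59-fold, and the fibril-associated Col9a3 3.36-fold and 2.18-fold. Col4a1 ranged only 1.16-fold and 1.21-fold. In these 5 chains saline replicate 2 was the highest and saline replicate 3 the lowest saline library, and collagenase replicate 3 the lowest collagenase library. That order was not particular to them. Col1a1 and Col3a1, which rose, had it too, as did further chains such as Col4a5, Col4a6, Col5a2, Col6a3, Col14a1 and Col17a1. The choroid plexus marker Ttr measured 847, 2382 and 12.9 CPM under saline and 1669, 1853 and 10.2 CPM in collagenase replicates 1, 2 and 3, and the marker Kl 39.4, 109.7 and 1.97 against 71.0, 60.8 and 3.03 CPM. Of the 8 choroid plexus markers 0 passed. Col8a1, Col8a2, Col4a3, Col4a4 and Col9a3 were picked after their values were seen, and the part of choroid plexus tissue in their spread was not tested. Their log2 fold changes lay between -0.16 for Col9a3 and 0.52 for Col8a2, and that of Col9a3 was 0.10 without collagenase replicate 3 and -0.49 without saline replicate 3.

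**Figure D3:**
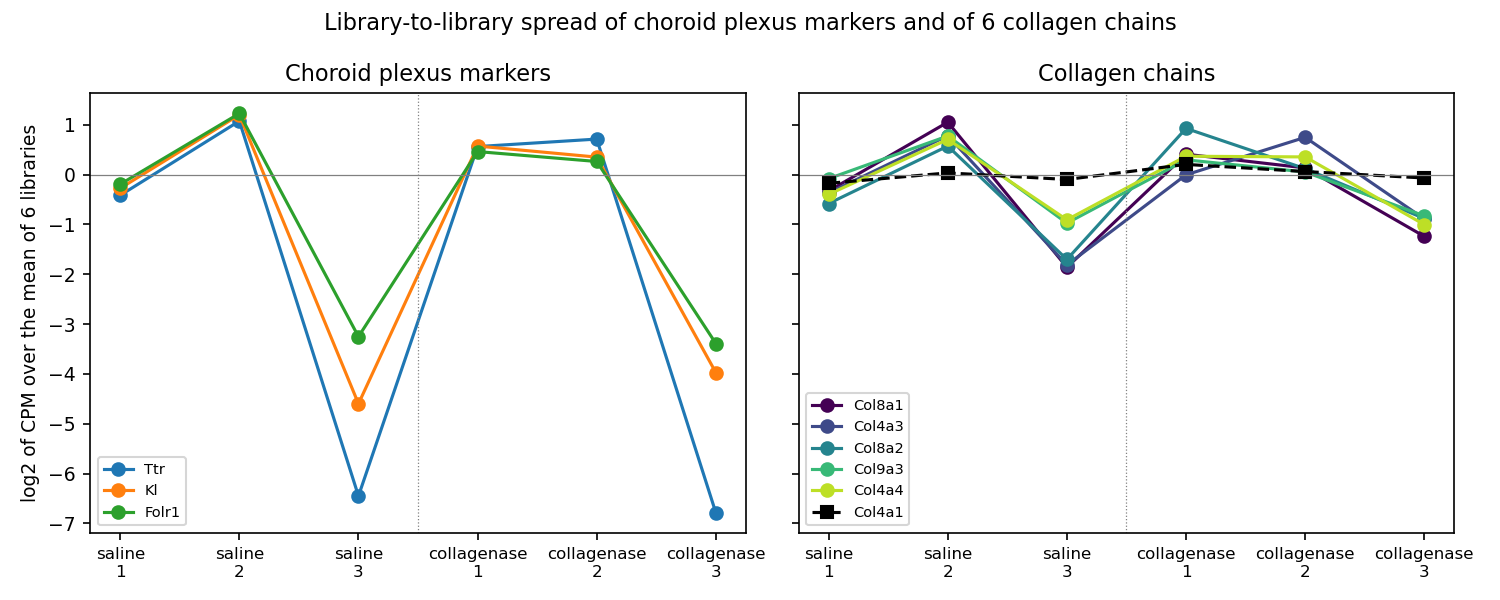
Log2 of CPM over the mean of the 6 libraries for 3 choroid plexus markers (left) and 6 collagen chains (right), 1 point per library, with a dotted line between the saline and the collagenase libraries. Replicate 3 of both groups is lowest for Ttr, Kl, Folr1 and for 5 of the chains, whereas Col4a1 stays near 0.

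Per gene length, the make-up of collagen RNA differed between the groups. All 44 chains summed to 80.4, 96.1 and 68.3 FPKM in saline and 131, 106 and 97.6 FPKM in collagenase replicates 1, 2 and 3. Fibrillar chains made up 17.0%, 16.5% and 16.2% of this sum under saline and 30.8%, 26.2% and 24.0% in collagenase replicates, and Col1a1, Col1a2 and Col3a1 alone were 6.23%, 7.64% and 5.70% against 20.6%, 14.8% and 14.4%. The Col4 chains made up 19.1%, 19.0% and 22.3% under saline and 16.4%, 18.4% and 18.3% in collagenase replicates. The shares of the 3 type I and III chains did not overlap between groups, and collagenase replicate 1 held the highest. These 3 chains were picked because they were called higher in the same libraries, so that separation adds no evidence. These sums describe the libraries and carry no test.

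In saline the order by FPKM began with Col25a1, Col9a3 (10.5 ± 6.51), Col4a2 (7.83 ± 0.51), Col4a1 (6.95 ± 0.78), Col26a1 (3.45 ± 0.67), Col16a1 (3.33 ± 1.18) and Col1a2 (3.00 ± 0.88). The steps from Col4a2 to Col4a1 and from Col4a1 to Col26a1 were larger than the SD of either neighbour, while every other step among these 7 was smaller than the larger SD of the pair. In collagenase libraries the first 4 places were the same, followed by Col1a2 (7.66 ± 1.47), Col16a1 (6.12 ± 0.68), Col3a1 (5.97 ± 3.41) and Col1a1 (5.24 ± 2.16), of which the last 3 lie within their SDs of each other. The lowest under saline was Col10a1, at 0.049 FPKM and 0.056 FPKM after collagenase, where Col6a5 was lower still at 0.036 FPKM. The FPKM of Col6a4 is uncertain, since its ratio to the count differed 3.01-fold between libraries, against at most 1.39-fold for the other chains.

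**Figure D4:**
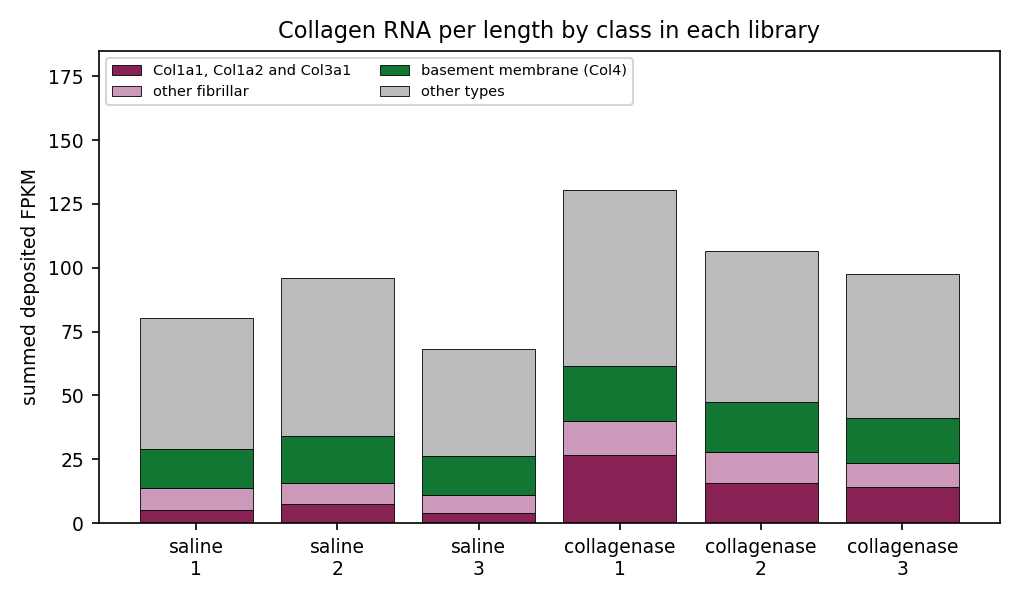
Deposited FPKM summed over the collagen chains of each class in each of the 6 libraries, stacked from 0. The segment of Col1a1, Col1a2 and Col3a1 is 3.89 to 7.34 FPKM in saline and 14.0 to 26.9 FPKM in collagenase libraries, while the Col4 segment is 15.2 to 18.2 and 17.8 to 21.5 FPKM.

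Ratios between the chains of 1 collagen, taken within each library, do not depend on its depth. The Col4a1 to Col4a2 ratio of FPKM was 0.888 ± 0.092 in saline and 0.887 ± 0.095 in collagenase libraries (exact two-sided permutation p = 1, n = 3 per group). The Col1a1 to Col1a2 ratio was 0.512, 0.562 and 0.540 in saline and 0.819, 0.685 and 0.504 in collagenase replicates 1, 2 and 3, with overlap (exact permutation p = 0.4). The Col6a1 to Col6a2 ratio was 1.70, 2.15 and 2.87 in saline and 1.38, 0.826 and 0.988 in collagenase replicates. Every collagenase value of that ratio lay below every saline value, with a mean log2 difference of -1.07 and an exact permutation p of 0.1. That is the smallest p that 3 against 3 libraries allow, so no ratio could reach 0.05. Adjusted over the 3 pairs the p-values were 1 for type IV, 0.6 for type I and 0.3 for type VI.

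**Figure D5:**
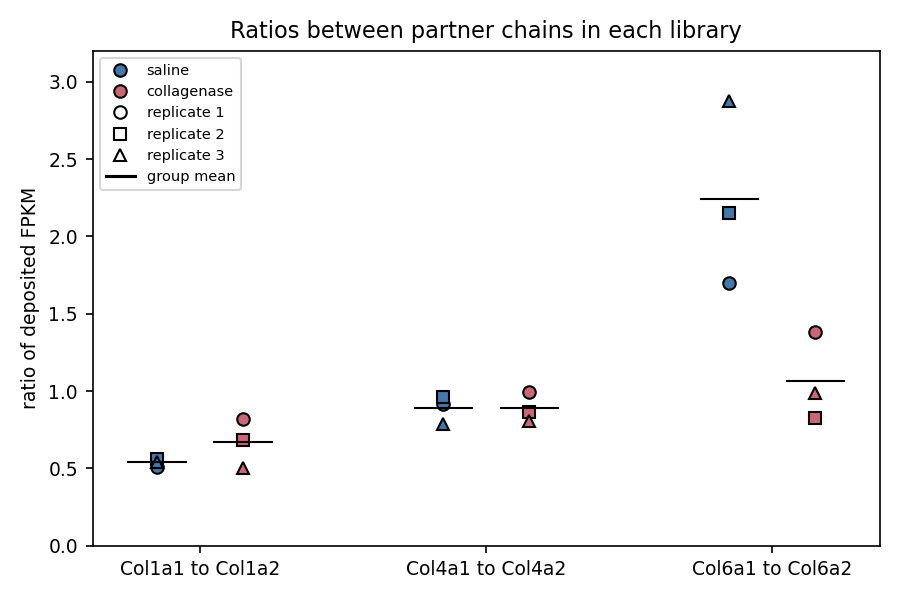
Ratio of the FPKM of partner chains in each library, with marker shape for the replicate number and a bar for the group mean. The Col6a1 to Col6a2 ratio is 1.70 to 2.87 in saline and 0.826 to 1.38 in collagenase libraries, and the Col4a1 to Col4a2 ratio 0.786 to 0.963 and 0.807 to 0.992.

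Several chains lie next to each other in the genome (GRCm38, GENCODE M21), and neighbours did not always have like values. Col4a1 (chromosome 8, 11198423 to 11312826, minus strand) and Col4a2 (11312805 to 11449287, plus strand) start head to head and share 22 exonic bases, and their log2 fold changes were 0.15 and 0.14. Reads in those 22 bases cannot be given to 1 of them without strand, and these are 0.295% of the exonic bases of Col4a1 and 0.332% of those of Col4a2. Col4a4 and Col4a3 on chromosome 1 start 71 bases apart, and Col4a6 and Col4a5 on chromosome X 1308 bases apart. Col3a1 and Col5a2 lie end to end on chromosome 1 with 24614 bases between them, and their log2 fold changes were 2.82 and 0.94. Col6a2 and Col6a1 lie on the same strand of chromosome 10 with 85161 bases between them, with 0.85 and -0.27.

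Genes that process collagen chains were counted by list. Each count is to be read against the 2.12% of all tested genes called higher and the 0.29% called lower. The count of cleaving enzymes is excepted below. Of 14 enzymes that hydroxylate and glycosylate the chains, 1 rose and 0 fell (median log2 fold change 0.20): P4ha3, a catalytic subunit of prolyl hydroxylase, from 6.19 ± 0.27 to 9.80 ± 0.32 CPM (log2 fold change 0.66, SE 0.14, edgeR adjusted p 0.0484). Of 16 genes of folding, secretion and propeptide removal 0 passed in edgeR (3 at an unadjusted p under 0.05, where 12% of all genes were, and 1 in DESeq2), with a median of 0.03. The chaperone Serpinh1 measured 17.4 ± 3.85 and 24.7 ± 0.84 CPM, the isomerase Fkbp10 5.88 ± 1.10 and 8.69 ± 0.51 CPM, and Sparc, a collagen-binding glycoprotein, 768 ± 75.3 and 1032 ± 139 CPM, each without overlap between groups. Sec23a, which helps to form the vesicles that carry chains out of the endoplasmic reticulum, was without overlap in the other direction, at 117.7 ± 7.99 and 102.1 ± 4.81 CPM. Among all tested genes 10.1% were higher and 7.5% lower without overlap (17.6% in either direction). Of 6 crosslinking enzymes 1 rose, lysyl oxidase Lox, which measured 0.95, 1.80 and 0.70 CPM under saline and 4.10, 3.28 and 3.89 CPM in collagenase replicates 1, 2 and 3 (log2 fold change 1.71, SE 0.35, edgeR adjusted p 0.0477). Leaving out single libraries ended the call of P4ha3 for 5 of the 6 and that of Lox for 4 of the 6.

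Of 10 tested collagen receptors 1 rose and the median log2 fold change was 0.34. It was Lair1, an inhibitory collagen receptor of leukocytes, from 9.56 ± 0.34 to 18.4 ± 4.66 CPM (log2 fold change 0.94, SE 0.19, edgeR adjusted p 0.046), and it lost its call when any of 5 libraries was left out. Mrc2, which takes up collagen fragments, measured 5.06 ± 1.64 and 9.98 ± 0.94 CPM without overlap and did not pass (edgeR adjusted p 0.0861), nor did the integrin subunit Itga1. Gp6, the platelet receptor, had 9 counts in all and was not tested.

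Of 12 tested proteins that bind collagen fibrils or associate with them 4 rose and 0 fell, with a median log2 fold change of 1.07: Dcn, Bgn, Thbs2 and Fn1. Dcn, a proteoglycan on fibrils, measured 14.1, 22.1 and 13.8 CPM under saline and 52.3, 31.3 and 35.3 CPM in collagenase replicates 1, 2 and 3 (edgeR adjusted p 0.0422). Its log2 fold change was 1.25, with collagenase replicate 1 highest as for Col1a2. The proteoglycan Bgn rose from 20.7 ± 3.17 to 38.0 ± 2.17 CPM and Fn1, fibronectin, from 39.7 ± 6.67 to 78.3 ± 9.53 CPM. Leaving out single libraries ended the call of Dcn for 5, of Bgn for 4 and of Thbs2 and Fn1 for 3 of the 6. Dcn is also on the fibroblast list above, and Kera was at 0 in all libraries.

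Of 7 tested enzymes that cut collagen 3 rose, Mmp3, Mmp8 and Mmp13, with a median log2 fold change of 1.18 (Mmp9, so the same with Mmp3 and Mmp8 at their lower bounds). All 3 had 0 to 6 counts in each saline library and passed the low-count filter only through the collagenase libraries. They could hardly come out lower, so their count is no evidence beside the share of all genes. The fibril-cutting Mmp13 measured 0.089 ± 0.088 CPM under saline and 1.66 ± 0.83 CPM after collagenase (log2 fold change 4.18, SE 0.77, edgeR adjusted p 0.0327). Mmp2 and Mmp14, which also act on collagen, measured 4.23 ± 1.38 and 7.72 ± 1.61 CPM and 13.0 ± 1.93 and 19.6 ± 2.83 CPM without overlap and did not pass. Mmp3, which activates other matrix metalloproteinases, and Mmp8, the neutrophil collagenase, had 0 counts in all saline libraries. The levels of Mmp3 after collagenase were 17.4 CPM for replicate 1, 6.51 CPM for replicate 2 and 3.89 CPM for replicate 3, with replicate 1 well above the others, and those of Mmp8 lay between 0.337 and 0.565 CPM. Against a floor of 3 counts over the saline group, Mmp3 was at least 349-fold higher and Mmp8 at least 17.9-fold. These bounds fell to 196-fold for Mmp3 without collagenase replicate 1 and 212-fold without saline replicate 1, and to 10.9-fold for Mmp8 without saline replicate 1. Leaving out single libraries ended the call of Mmp13 for 3 and of Mmp8 and Mmp3 for 4 of the 6. Mmp1a was at 0 in all libraries.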

How the data were processed

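Per the labels' protocols, mRNA of 6 VPL/VPM libraries was captured on oligo(dT) beads, fragmented, primed with random hexamers and amplified by PCR; no strand-marking step is named. The submitters' processing notes name HISAT2 2.2.1, StringTie, DESeq2 and GRCm38 without roles; the annotation, strand setting and treatment of shared reads were not stated in the labels or headers used here. Per the file headers, the authors deposited raw counts and FPKM for 26554 features; 10 to 30 lines of spilled annotation text per file were skipped.

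Counts were tested with edgeR 4.0.16 (filterByExpr, TMM, robust quasi-likelihood F-test, two-sided, Benjamini-Hochberg over 17240 genes, threshold 0.05), after a test on simulated data; DESeq2 1.42.0 was an alternative. Intervals are 95%. The deposited FPKM values served levels between genes and ratios. Collagen classes and gene lists, and the rule for named chains (those called, all fibrillar and Col4 chains, 8 others by fold change, 5 by FPKM), were chosen with earlier results of these data known; further chains and list genes (Dcn, Mmp2 and Mmp14 among them) were named after their values were seen, and Pdgfra is on 2 marker lists. Positions are from GENCODE M21 (GRCm38).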

Additional observations from a re-analysis of the deposited data

How the results depend on the processing

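The count of collagen chains called higher was 3 with DESeq2 size factors, without the low-count filter, with Ensembl features only and without robust shrinkage, each time Col1a1, Col1a2 and Col3a1. In DESeq2 6 chains were higher, 3 of them of other types, and all genes called were 813 (616 higher, 197 lower) in place of 416 (366 and 50). With the replicate number as a block the chains called were 4, with 1 of other types, Col16a1 (edgeR adjusted p 0.0462), and the genes called 302. The hydroxylase, crosslinking, receptor and fibroblast lists then held 0 called genes each, and the cleaving enzymes 1 in place of 3, while DESeq2 called 5 of the latter. The hydroxylase, crosslinking and receptor lists also held 0 called genes without robust shrinkage, and the hydroxylase list 0 without the low-count filter. Same-numbered libraries deviated together with correlations of 0.044, 0.11 and 0.20. Saline replicates 2 and 3 correlated best with the collagenase library of the same number, and saline replicate 1 with collagenase replicate 2 (0.076). The labels do not say that the numbers mark pairs, so the main fit did not take them as pairs. Over the fits that left out 1 library, the count of chains called higher was 0 (without saline replicate 1) to 5 (without saline replicate 2), that of fibrillar chains 0 to 4, of Col4 chains 0 to 0 and of other types 0 to 1, with 0 to 0 chains lower. All genes called ran from 85 to 917, higher from 81 to 503 and lower from 4 to 414. The median log2 fold change of the chains ran from 0.30 to 0.59. For the log2 difference in ratio between groups, ranges were 0.13 to 0.48 for Col1a1 to Col1a2, -0.09 to 0.06 for Col4a1 to Col4a2 and -1.28 to -0.88 for Col6a1 to Col6a2; these and ratios of counts were added after seeing the data.

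Of 336 comparisons over 28 named chains, 16 turned sign, all of chains that did not pass. With the block Col25a1 was at 0.0043. Over the fits that left out 1 library, log2 fold changes ran from -0.26 to 1.00 for Col4a3, -0.22 to 0.66 for Col4a4, -0.49 to 0.37 for Col9a3, -0.20 to 0.085 for Col25a1, -0.21 to 0.060 for Col26a1 and -0.42 to 0.078 for Col27a1. The cause was not tested. At this depth Col10a1, with 44 counts in sum, was too low to be tested. The bounds of the Mmp3 and Mmp8 folds without each library were also added after seeing the data.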
